A study of Mus musculus with 11 samples.

Results

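Cry1 and Cry2 are the cryptochrome genes of the mouse, taken by their symbols from every count table: 2 of 24411 gene symbols. Their RNA was followed in 4 groups of libraries. Corpus callosum, the tract of myelinated axons between the hemispheres, came from animals labelled Bmal1-/- (n = 2 libraries) and from wild-type animals (n = 3). Primary neurospheres, balls of stem and progenitor cells grown in suspension, came from the subventricular zone of animals labelled Bmal1-/- (n = 3) and of wild-type animals (n = 3). All animals were 8 to 10 weeks old. The neurospheres had been grown for 1 week with EGF at 20 ng/ml and heparin at 2 ug/ml. Bmal1 is listed in the tables as Arntl. The labels give no strain, sex, number of animals per library or hour of collection, and do not say which exons the allele lacks. Nor do they tell whether replicates are different animals or different cultures. A p-value here therefore reflects only how far these libraries spread, and that spread may be technical.

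Cryptochromes are the main repressors of the mammalian circadian clock. CLOCK and BMAL1 bind E-boxes and drive the Per and Cry genes, and PER and CRY proteins enter the nucleus together and block CLOCK-BMAL1. REV-ERB repressors and ROR activators, themselves driven from E-boxes or by the clock, act in turn on a further set of genes that includes Cry1. CRY1 is known as the stronger repressor of the pair, and either cryptochrome can be lost without abolishing behavioural rhythms in mice.

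Cry1 (ENSMUSG00000020038.10) lies on chromosome 10, bases 85131700 to 85185064, minus strand, in the mm10 build. Cry2 (ENSMUSG00000068742.11) lies on chromosome 2, bases 92403646 to 92434043, also on the minus strand. The promoters are shown because both genes are textbook E-box targets, and the deletion named in the labels is of an E-box factor. Each line runs from 250 bases before to 50 bases after the RefSeq start in GRCm38.p6, the assembly of mm10, on the gene's own strand (chr10:85185005-85185304 and chr2:92434020-92434319). Capitals mark an E-box (CACGTG) or an E'-box (CACGTT, which reads AACGTG on the other strand).
Cry1: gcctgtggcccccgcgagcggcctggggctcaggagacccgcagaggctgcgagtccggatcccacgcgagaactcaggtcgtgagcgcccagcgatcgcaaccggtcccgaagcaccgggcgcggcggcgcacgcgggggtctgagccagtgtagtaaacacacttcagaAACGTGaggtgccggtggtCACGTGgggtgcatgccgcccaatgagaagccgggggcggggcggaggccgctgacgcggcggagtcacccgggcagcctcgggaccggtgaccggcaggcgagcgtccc
Cry2: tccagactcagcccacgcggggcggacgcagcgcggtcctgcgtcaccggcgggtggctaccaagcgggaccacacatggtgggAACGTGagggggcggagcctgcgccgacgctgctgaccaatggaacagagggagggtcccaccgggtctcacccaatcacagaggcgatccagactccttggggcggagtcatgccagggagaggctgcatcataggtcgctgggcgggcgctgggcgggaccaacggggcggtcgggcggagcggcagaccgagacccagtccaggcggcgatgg
The Cry1 window held 1 E-box, whose first base is at -60 from the start, and 1 E'-box at -79, on chromosome 10 at 85185109 to 85185114 and 85185128 to 85185133. The Cry2 window held 1 E'-box at -166, on chromosome 2 at 92434230 to 92434235, and no CACGTG. The matches do not overlap one another. Both strands were also searched for a D-box (TTATGTAA or TTACGTAA) and for the REV-ERB and ROR half-site AGGTCA, and neither window held these letters. Among 32851 mouse promoters of the same length, 7.15% held the E-box, 4.68% the E'-box, 1.06% a D-box and 16.3% AGGTCA. A match is a run of letters and not a shown binding site.

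Gene counts summed to 17513165 to 17836955 per callosum library and 17450270 to 19717848 per neurosphere library, and each library detected 16716 to 17076 genes. The labelled tissues carried their markers. Summed oligodendrocyte markers stood at 24703 to 34558 CPM (read counts scaled to library size, with TMM factors) in callosum labelled Bmal1-/- and 22250 to 33509 CPM in wild-type callosum. Summed neural stem and progenitor markers stood at 3606 to 4427 CPM in neurospheres labelled Bmal1-/- and 3110 to 3934 CPM in wild-type neurospheres. Neuronal markers were also present in the callosum, at 9342 to 10920 CPM in libraries labelled Bmal1-/- and 7966 to 10063 CPM in wild-type libraries. The targeted gene, Arntl, stood at 32.3 and 40.3 CPM in callosum labelled Bmal1-/- and 39.3, 35.8 and 32.5 CPM in wild-type callosum, then 40.5, 42.8 and 48.9 CPM in neurospheres labelled Bmal1-/- and 38.2, 49.4 and 45.8 CPM in wild-type neurospheres. The groups overlapped in both sources, and Arntl was not called (edgeR adjusted p = 0.943 in callosum and 0.983 in neurospheres). A count over the whole gene can keep reads from an allele that lacks part of it, so Arntl gives no check of the genotype and the libraries are named by their labels.

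In the callosum, Cry1 RNA was 2.30-fold higher in the libraries labelled Bmal1-/- than in wild type. Cry1 stood at 44.7 and 57.4 CPM in callosum labelled Bmal1-/-, against 20.5, 26.2 and 20.4 CPM in wild-type callosum. Both libraries labelled Bmal1-/- lay above all 3 wild-type libraries, an order shared by 13.7% of the genes tested in callosum. The lower of the libraries labelled Bmal1-/- was still above the highest wild-type value by more than the whole wild-type range. The raw counts behind these levels were 640 and 831 in callosum labelled Bmal1-/- and 298, 396 and 298 in wild-type callosum, so counting error was small beside the spread between libraries. The log2 fold change was 1.20 ± 0.16 (SE, 95% interval 0.84 to 1.56, edgeR quasi-likelihood adjusted p = 0.0103). Called, in what follows, means an adjusted p under 0.05 by Benjamini-Hochberg over all genes tested. Cry1 was 48th of 14198 genes by p, where 0.909% of genes were called in either direction and 0.521% were called higher. Without wild-type replicate 3 the log2 fold change was 1.14 and Cry1 was no longer called (adjusted p = 0.118, edgeR). Leaving out each of the other 4 libraries kept the call. In tissue, more cells with Cry1 RNA and more Cry1 RNA per cell cannot be told apart, nor, with no hour of collection in the labels, can a change in mean level and a shift in the phase of a rhythm.

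Cry2, the gene with the larger count of the pair in every callosum library, was 1.17-fold higher in the libraries labelled Bmal1-/- and missed the threshold. Its level was 229 and 224 CPM in callosum labelled Bmal1-/-, against 204, 192 and 189 CPM in wild-type callosum. Here too the groups did not overlap, but the distance between them was small beside the level. The log2 fold change was 0.23 ± 0.09 (SE, 95% interval 0.02 to 0.44), and Cry2 was not called (edgeR adjusted p = 0.33, 1579th of 14198 genes). Groups that do not overlap were common in these 5 libraries, with 13.7% of genes higher in both libraries labelled Bmal1-/- than in every wild-type library. The upper bound for Cry2 lies below the lower bound for Cry1.

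In neurospheres the Cry1 difference had a like size and missed the threshold. Cry1 stood at 72.2, 77.3 and 86.9 CPM in neurospheres labelled Bmal1-/-, against 33.0, 44.3 and 46.8 CPM in wild-type neurospheres. All 3 libraries labelled Bmal1-/- were above all 3 wild-type libraries. Of the genes tested in neurospheres, 6.37% had that order. The log2 fold change was 0.93 ± 0.18 (SE, 95% interval 0.51 to 1.35), a 1.91-fold difference, and Cry1 was 25th of 13968 genes by p. It was not called by edgeR (adjusted p = 0.532), in a comparison where 1 gene, or 0.00716%, was called. DESeq2 called it (log2 fold change 0.92, adjusted p = 0.0118) and called 34 genes in all.

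Cry2 in neurospheres stood at 36.7, 47.2 and 57.8 CPM in libraries labelled Bmal1-/-, against 33.7, 53.1 and 60.8 CPM in wild-type libraries. The groups overlapped throughout, and replicate 1 was the lowest library of both genotypes. The log2 fold change was -0.06 ± 0.26 (SE, 95% interval -0.65 to 0.54, edgeR adjusted p = 0.947), which leaves room for a difference in either direction. Replicate 1 labelled Bmal1-/- also had the highest share of unmapped reads, 22.6% against 13.7% to 16.2% in the other 5 neurosphere libraries, and the part of this in the Cry2 value was not tested.

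**Figure D1:**
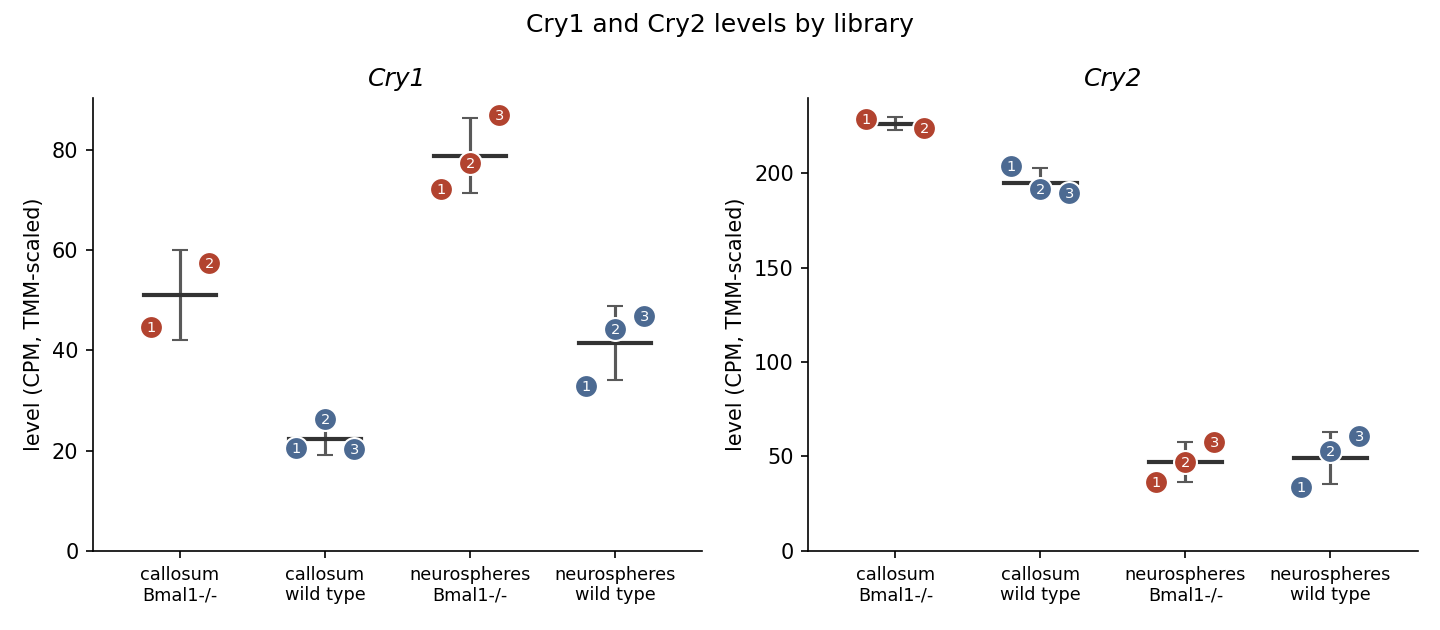
Level of Cry1 (left) and Cry2 (right) in each library, in TMM-scaled CPM, by RNA source and labelled genotype. Points are libraries with their replicate numbers, bars are group means, and whiskers are 1 SD. For Cry1 the libraries labelled Bmal1-/- (44.7 to 57.4 CPM in callosum, 72.2 to 86.9 CPM in neurospheres) lie above the wild-type libraries of their source. Cry2 is higher in callosum (189 to 229 CPM) than in neurospheres (33.7 to 60.8 CPM).

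One model of all 11 libraries, with the source of RNA as a term, gave 1 genotype difference over both sources. Cry1 was higher in the libraries labelled Bmal1-/- by 1.04 ± 0.13 on the log2 scale (SE, 95% interval 0.76 to 1.33, edgeR adjusted p = 0.00443), a 2.06-fold difference. It was 7th of 15322 genes by p, where 0.137% of genes were called in either direction and 0.0587% were called higher. The order of Cry1, with every library labelled Bmal1-/- above every wild-type library in both sources, was shared by 1.61% of the genes tested. Leaving out any 1 of the 11 libraries kept the call, with fold changes of 0.95 to 1.12 on the log2 scale and edgeR adjusted p = 0.00128 to 0.0277. Cry2 differed by 0.07 ± 0.15 (SE, 95% interval -0.27 to 0.40, edgeR adjusted p = 0.875).

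The genotype by source term asks whether the difference in callosum and that in neurospheres are unequal. For Cry1 the callosum difference exceeded the neurosphere difference by 0.26 ± 0.27 on the log2 scale (SE, 95% interval -0.33 to 0.84, edgeR adjusted p = 0.999), and for Cry2 by 0.27 ± 0.32 (SE, 95% interval -0.42 to 0.96, edgeR adjusted p = 0.999). Neither was called, where 0.0131% of genes were. The intervals do not show that the differences were equal.

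**Figure D2:**
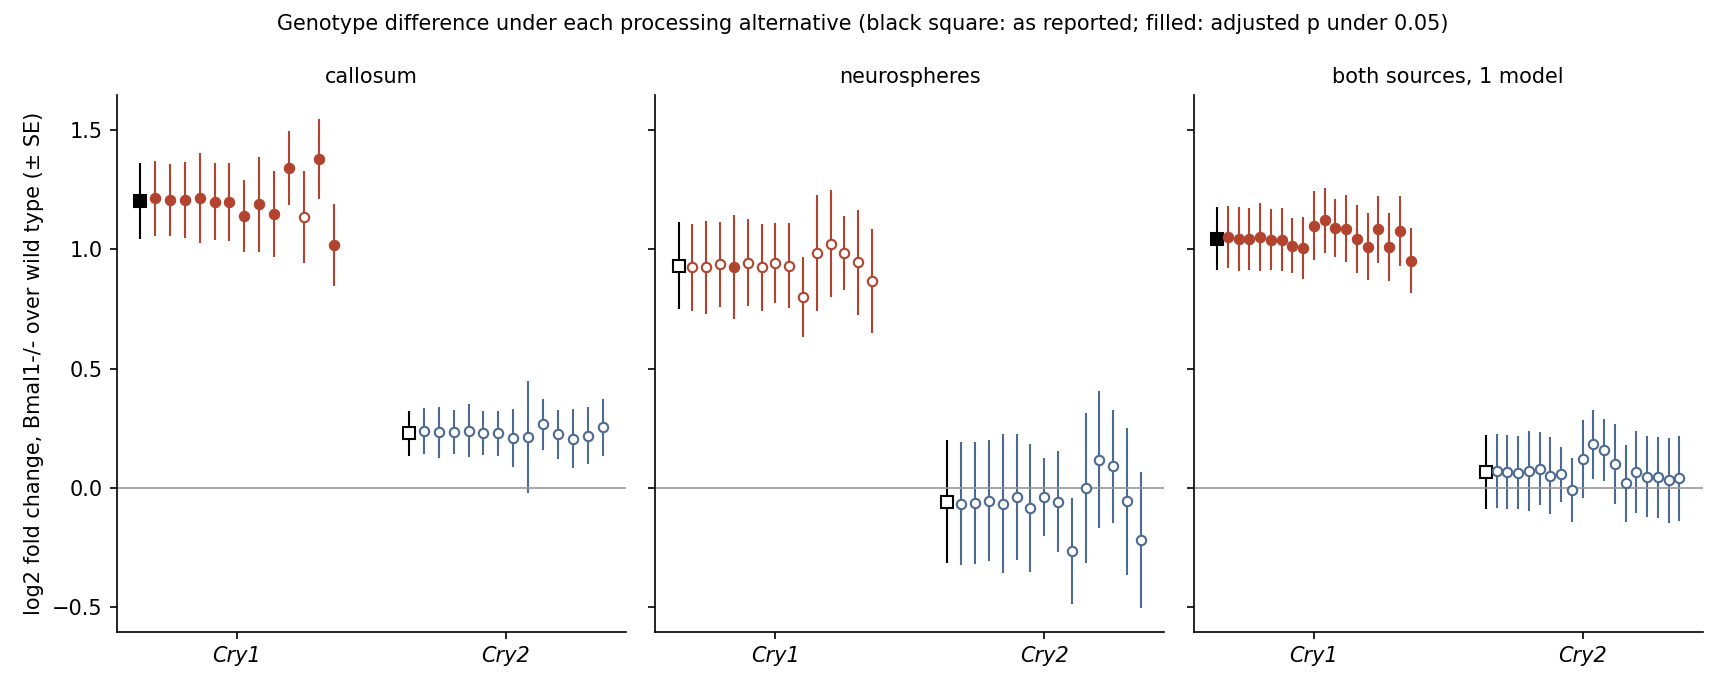
Log2 fold change, libraries labelled Bmal1-/- over wild type, with its SE, for Cry1 and Cry2 in callosum, in neurospheres and in 1 model of both sources. The black square is the value as reported and each further point is 1 processing alternative or 1 library left out, filled where the adjusted p is under 0.05. Cry1 stays near 1 in every panel (0.80 to 1.38) and Cry2 stays between -0.26 and 0.27.

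The ratio of the Cry1 count to the Cry2 count within a library does not depend on library size or scaling, and it compares the response of the paralogues directly. On the log2 scale it was -2.36 and -1.96 in callosum labelled Bmal1-/-, against -3.31, -2.87 and -3.22 in wild-type callosum. It was 0.98, 0.71 and 0.59 in neurospheres labelled Bmal1-/-, against -0.03, -0.26 and -0.38 in wild-type neurospheres. The groups did not overlap in either source, and Cry1 had the larger count only in the 3 neurosphere libraries labelled Bmal1-/-. The mean difference was 0.97 in callosum and 0.98 in neurospheres, 1.96-fold and 1.98-fold. An exact two-sided permutation test gave p = 0.1 in each source, the smallest it can give with so few libraries. With genotype permuted within source over all 11 libraries, the difference was 0.98, or 1.97-fold (exact permutation p = 0.005, the smallest that 200 arrangements allow, and 0.02 after adjustment over the 4 ratio tests).

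**Figure D3:**
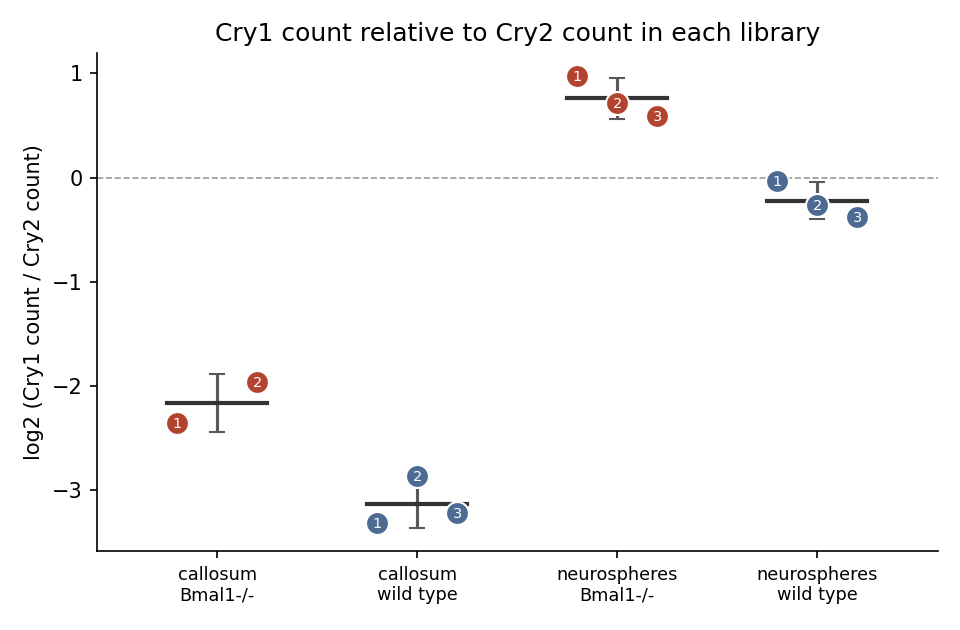
Log2 ratio of the Cry1 count to the Cry2 count in each library, by source and labelled genotype. Points are libraries with their replicate numbers, bars are group means, whiskers are 1 SD, and the dashed line marks equal counts. In each source the libraries labelled Bmal1-/- lie about 1 log2 unit above wild type (0.97 in callosum, 0.98 in neurospheres).

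Levels were also set per kilobase of transcript (3026 bases for Cry1 and 3976 for Cry2), so that the paralogues can be compared. Per kilobase, Cry1 stood at 16.9 ± 2.96 CPM in callosum labelled Bmal1-/- (SD, n = 2), 7.39 ± 1.11 CPM in wild-type callosum (SD, n = 3), 26.0 ± 2.46 CPM in neurospheres labelled Bmal1-/- (SD, n = 3) and 13.7 ± 2.44 CPM in wild-type neurospheres (SD, n = 3). Cry2 stood at 56.9 ± 0.928, 49.0 ± 1.95, 11.9 ± 2.66 and 12.4 ± 3.52 CPM per kilobase in the same 4 groups. Cry1 was thus below Cry2 in every callosum library, at about the level of Cry2 in wild-type neurospheres (Cry1 over Cry2 1.01 to 1.29), and above it in neurospheres labelled Bmal1-/- (1.97 to 2.59). Per kilobase of all annotated exon bases instead, Cry1 over Cry2 in wild-type neurospheres was 1.46 to 1.85, so a call of equal levels there rests on the length used.

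As a description with no test, the sum of both cryptochromes per kilobase was 72.3 to 75.2 CPM in callosum labelled Bmal1-/- and 54.3 to 58.0 CPM in wild-type callosum. It was 33.1 to 43.2 CPM in neurospheres labelled Bmal1-/- and 19.4 to 30.8 CPM in wild-type neurospheres. The sum was higher in the libraries labelled Bmal1-/- of both sources, with no overlap. Of single genes tested, 13.7% had that order in callosum, 6.37% in neurospheres and 1.61% in both. Cry1 made up 22.8% of the sum in callosum labelled Bmal1-/- and 13.1% in wild-type callosum, and 68.9% in neurospheres labelled Bmal1-/- and 53.0% in wild-type neurospheres.

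Between wild-type sources the paralogues went in opposite directions. Cry1 was 0.559 times as high in callosum as in neurospheres (log2 fold change -0.84 ± 0.16, SE, edgeR adjusted p = 0.000925), and Cry2 was 4.09-fold higher in callosum (2.03 ± 0.19, SE, edgeR adjusted p = 5.52e-06). Such calls were the rule there, with 85.8% of 14733 genes called, 42.0% higher and 43.8% lower in callosum, so a call by itself says little about the cryptochromes. Cry1 averaged 22.4 ± 3.35 CPM in wild-type callosum and 41.4 ± 7.39 CPM in wild-type neurospheres (SD, n = 3 each). Cry2 averaged 195 ± 7.76 CPM in wild-type callosum and 49.2 ± 14.0 CPM in wild-type neurospheres (SD, n = 3 each). Tissue against culture, cell composition and library preparation cannot be told apart here, since every callosum library is of tissue and every neurosphere library of culture. Unmapped reads took 7.77% to 8.46% in callosum and 13.7% to 22.6% in neurospheres.

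Over the 4 groups, Cry1 was therefore ordered, low to high, as wild-type callosum, wild-type neurospheres, callosum labelled Bmal1-/- and neurospheres labelled Bmal1-/-. The middle neighbours lay close, with callosum labelled Bmal1-/- at 51.0 ± 8.96 CPM (SD, n = 2, lowest library 44.7) and wild-type neurospheres at 41.4 ± 7.39 CPM (SD, n = 3, highest library 46.8), and their libraries overlapped. Cry2 was ordered as neurospheres of either genotype, whose libraries overlapped, then wild-type callosum, then callosum labelled Bmal1-/-.

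The repressor partners of CRY did not share one pattern. PER proteins bind CRY in the repressor complex, and of the 3 Per genes only Per3 was called, in callosum and over both sources. Of all genes, edgeR called 0.387% lower in callosum, 0.00716% in neurospheres and 0.0783% over both sources. Per3 stood at 18.5 and 20.9 CPM in callosum labelled Bmal1-/- and 98.5, 87.6 and 93.7 CPM in wild-type callosum. There it fell by 2.23 on the log2 scale (SE 0.12, edgeR adjusted p = 7.79e-05). In neurospheres Per3 fell by 2.43 (SE 0.31) and was not called (edgeR adjusted p = 0.11). Over both sources it fell by 2.35 (SE 0.19, edgeR adjusted p = 9.9e-05), opposite to Cry1. Per1 and Per2 had overlapping groups in callosum, with log2 fold changes of -0.01 ± 0.15 and 0.21 ± 0.13 (SE), and in neurospheres had -0.71 ± 0.31 and 0.22 ± 0.21 (SE). Neither was called in either source.

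The positive limb, the activators that CRY represses, comprised 4 genes: Arntl, its paralogue Arntl2, Clock and Npas2. Npas2, which encodes a partner of BMAL1 akin to CLOCK, was called higher in callosum. Of all genes, edgeR called 0.521% higher in callosum, 0% in neurospheres and 0.0587% over both sources. Npas2 stood at 269 and 308 CPM in callosum labelled Bmal1-/- and 158, 150 and 134 CPM in wild-type callosum (log2 fold change 0.98 ± 0.11, SE, edgeR adjusted p = 0.00499, 0.0709 without wild-type replicate 3 and 0.0632 in 1 fit of all 4 groups). In neurospheres it stood at 29.3, 40.6 and 36.3 CPM in libraries labelled Bmal1-/- and 8.61, 7.23 and 10.3 CPM in wild-type libraries. It was not called there (2.02 ± 0.21, SE, edgeR adjusted p = 0.091). In both sources every library labelled Bmal1-/- lay above every wild-type library, an order shared by 1.61% of the genes tested. Over both sources Npas2 rose by 1.55 ± 0.19 (SE, edgeR adjusted p = 0.00443), so Cry1 and Npas2 were both among the 9 genes called higher. The other 3 of the list were called by edgeR in no genotype comparison.

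E-box targets other than the cryptochromes were lower wherever they were called. Of 14 such genes tested, 0 were higher and 6 lower in callosum, 0 and 1 in neurospheres, and 0 and 4 over both sources, with median log2 fold changes of -0.58, -0.54 and -0.54 beside -0.01 for all genes in each. Of all genes, edgeR called 0.387% lower in callosum, 0.00716% in neurospheres and 0.0783% over both sources. DESeq2 called 7, 4 and 4 of the 14 genes in these comparisons, and limma-voom 5, 1 and 4. Of all 14198, 13968 and 15322 genes, DESeq2 called 331, 34 and 109 in either direction, and limma-voom 108, 2 and 25. In callosum the 6 included Dbp, a D-box activator, which fell by 2.87 (SE 0.13), and Ciart, a repressor of CLOCK-BMAL1, which fell by 2.47 (SE 0.22) and whose call was lost in 1 fit of all 4 groups (edgeR adjusted p = 0.0609). The lists share members: these 6, other than Ciart, are also counted elsewhere here. Cry1 and Cry2 were not among the genes called lower.

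The receptors that act on Cry1 fell where they were called. Of 5 genes tested, 2 were lower in callosum, 1 in neurospheres and 2 over both sources, all of them REV-ERB genes. Of all genes, 0.387% were called lower in callosum, 0.00716% in neurospheres and 0.0783% over both sources. Nr1d2, encoding REV-ERB beta, stood at 1.19 and 2.21 CPM in callosum labelled Bmal1-/- and 11.9 to 12.1 CPM in the 3 wild-type libraries of callosum. In neurospheres Nr1d2 stood at 2.97, 4.24 and 3.73 CPM in libraries labelled Bmal1-/- and 60.4, 64.6 and 64.7 CPM in wild-type libraries. It fell by 2.80 (SE 0.25, edgeR adjusted p = 0.00117) in callosum and fell by 4.11 (SE 0.20, edgeR adjusted p = 0.000403) in neurospheres, the 1 gene called there. Nr1d1, encoding REV-ERB alpha, fell by 0.93 (SE 0.14, edgeR adjusted p = 0.0205) in callosum and fell by 1.49 (SE 0.23, edgeR adjusted p = 0.0192) over both sources. Its callosum call was lost without wild-type replicate 3 or either library labelled Bmal1-/- (edgeR adjusted p = 0.0635 to 0.17), and in 1 fit of all 4 groups (0.435). Its call over both sources was lost without neurosphere replicate 2 or 3 labelled Bmal1-/-, callosum replicate 1 labelled Bmal1-/- or wild-type callosum replicate 1 (edgeR adjusted p = 0.0516 to 0.0658). The 3 ROR genes, which encode the opposing activators, were not called by edgeR. DESeq2 called 3 of the 5 receptor genes over both sources, beside 109 of all 15322 genes.

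Genes that textbooks place beside Cry1 under REV-ERB and ROR control moved up where they were called. Of 5 genes tested (Arntl, Clock, Npas2, Nfil3 and Fabp7), 3 were higher in callosum, 0 in neurospheres and 1 over both sources, with median log2 fold changes of 0.98, 0.34 and 0.77. Of all genes, edgeR called 0.521% higher in callosum, 0% in neurospheres and 0.0587% over both sources. In neurospheres 2 of the 5 had an unadjusted edgeR p under 0.05, as did 3.02% of all genes. DESeq2 called 1 of the 5 there and limma-voom 0, beside 34 and 2 of all 13968 genes. Nfil3, a D-box repressor, rose by 1.35 ± 0.16 (SE, edgeR adjusted p = 0.00593, and 0.448 in 1 fit of all 4 groups) and Fabp7, a fatty acid binding protein of radial glia and astrocytes, by 3.27 ± 0.37 (SE, edgeR adjusted p = 0.00512) in callosum. Fabp7 is low in the callosum, at 10.4 and 8.77 CPM in libraries labelled Bmal1-/- and 0.551, 1.72 and 0.684 CPM in wild-type libraries, and its call was lost without wild-type replicate 3 (edgeR adjusted p = 0.0626) or replicate 1 labelled Bmal1-/- (0.0511). The third was Npas2, and Arntl and Clock were not called. Of the 4 D-box factors, which also act on Cry1, Nfil3 was called higher and Dbp lower in callosum, and Dbp alone was called over both sources (it fell by 2.24, SE 0.24, edgeR adjusted p = 0.00191).

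**Figure D4:**
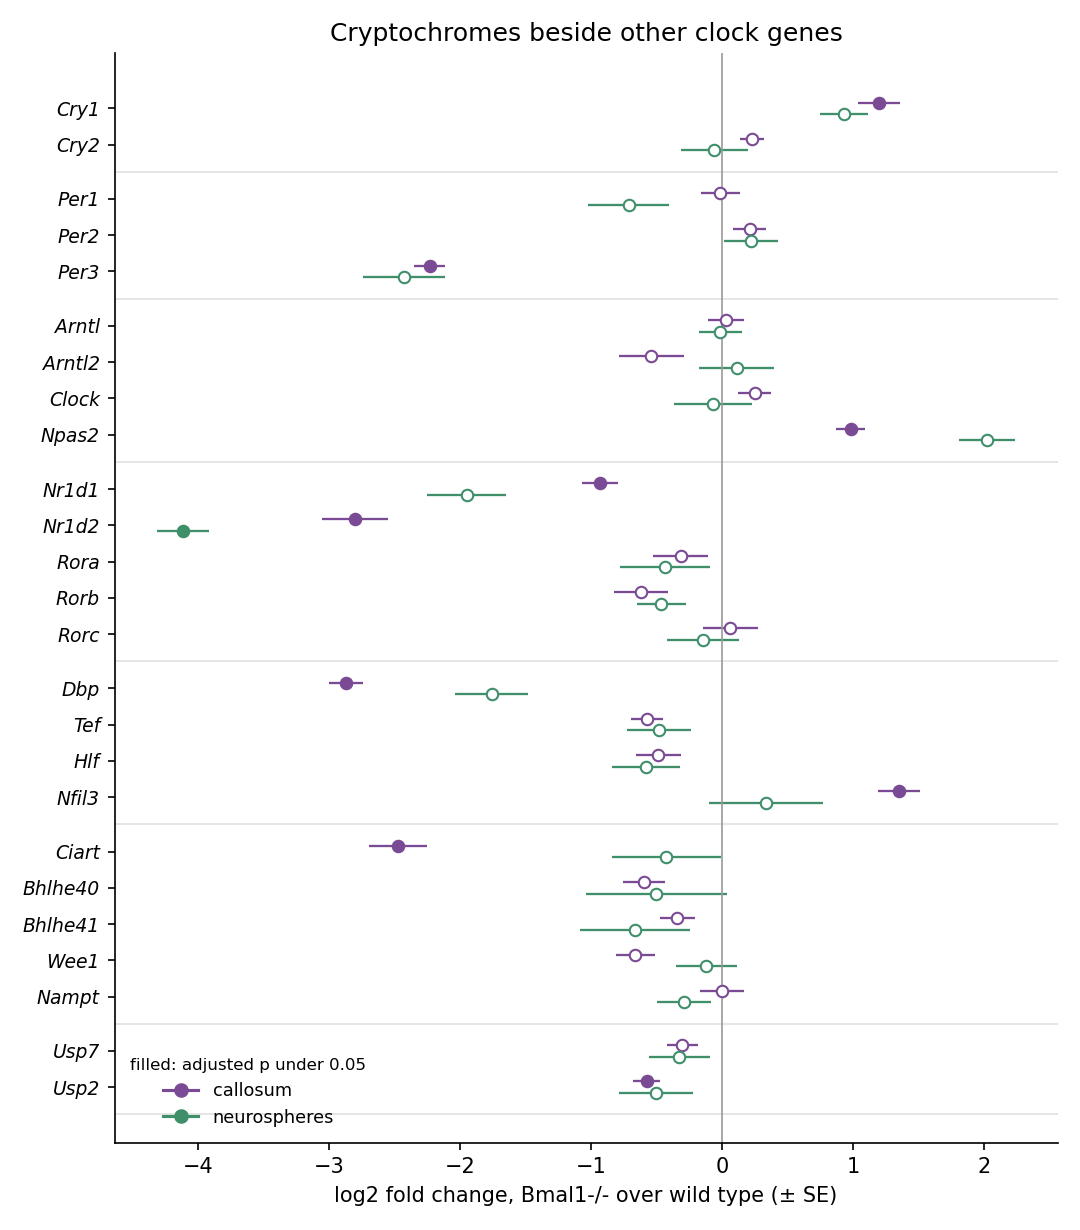
Log2 fold change, libraries labelled Bmal1-/- over wild type, with its SE, for the cryptochromes and other clock genes in callosum and in neurospheres. Filled points have an adjusted p under 0.05. Cry1 (1.20 and 0.93) lies on the side of Npas2, opposite to Per3, Nr1d1, Nr1d2 and Dbp. Nfil3 lies on the side of Cry1 in callosum (1.35 ± 0.16, SE) and has 0.34 ± 0.43 (SE) in neurospheres. Arntl has 0.03 and -0.01, and Clock 0.25 and -0.07, in callosum and neurospheres.

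Few genes for the turnover of CRY protein were called. Of 19 tested, 1 was called lower in callosum and 0 in neurospheres or over both sources, with median log2 fold changes of -0.09, -0.12 and -0.09. Of all genes, 0.387% were called lower in callosum. At an unadjusted edgeR p under 0.05 there were 4, 0 and 3, beside 13.9%, 3.02% and 9.93% of all genes, and DESeq2 called 1, 0 and 0, and limma-voom called 0 in each. The 1 gene was Usp2, a deubiquitinase, which fell by 0.57 (SE 0.10, edgeR adjusted p = 0.0431), and leaving out any of the 5 callosum libraries ended its call. None of 5 PER kinase genes and none of 5 genes for nuclear factors bound by CRY was called in a genotype comparison, and edgeR, DESeq2 and limma-voom each gave 0, also at an unadjusted edgeR p under 0.05. RNA does not measure the stability of CRY protein.

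Cell type markers were set beside the Cry1 difference. In callosum, striatal neuron markers summed to 764 and 990 CPM in libraries labelled Bmal1-/- and 811, 2663 and 1510 CPM in wild-type libraries, with 0 of 8 called by edgeR, DESeq2 or limma-voom, 0 at an unadjusted edgeR p under 0.05, and a median log2 fold change of -1.22. Choroid plexus markers summed to 14.0 and 10.1 CPM in libraries labelled Bmal1-/- and 22.6, 46.1 and 180 CPM in wild-type libraries, with 0 of 4 called by each tool and 2 at an unadjusted edgeR p under 0.05. These sums were thus unequal between wild-type libraries, and Cry1 was highest in wild-type replicate 2, where the striatal sum was also highest. Of all genes in callosum, 13.9% had an unadjusted edgeR p under 0.05 and 0.909% were called by edgeR. Oligodendrocyte markers overlapped between genotypes. Of 6 astrocyte markers, 3 had a log2 fold change above 0 in callosum, and the median was -0.01. Aldh1l1 was called and fell by 0.55 (SE 0.10, edgeR adjusted p = 0.0491). Aqp4 rose by 0.65 (SE 0.14, edgeR adjusted p = 0.0798) and was not called by edgeR. DESeq2 called 2 of the 6 and limma-voom 0, beside 331 and 108 of all 14198 genes in callosum. In neurospheres no tested marker of the 11 lists was called by edgeR, DESeq2 or limma-voom. Of all 13968 genes there, these tools called only 1, 34 and 2, and no choroid plexus marker was tested. Summed markers of cycling cells stood at 787, 1309 and 1312 CPM in neurospheres labelled Bmal1-/- and 1457, 1166 and 1056 CPM in wild-type neurospheres. The part of cell composition in the Cry1 difference was not tested.

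No neighbour of the cryptochrome genes was called between genotypes. Of all genes, edgeR called 0.909% in callosum, 0.00716% in neurospheres and 0.137% over both sources, so the lack of calls among so few genes says little. Mterf2, 3673 bases from Cry1, had log2 fold changes of -0.88 ± 0.49 in callosum and -0.40 ± 0.20 in neurospheres (SE). Mapk8ip1, 2383 bases from Cry2, had 0.01 ± 0.11 and 0.23 ± 0.15 (SE). Btbd11 and Slc35c1, the nearest coding genes on the other side, had -0.04 ± 0.17 and -0.19 ± 0.11 in callosum (SE). A noncoding gene, D930015M05Rik, overlaps Cry2 on the opposite strand and shares 295 exon bases with it, and reads there cannot be assigned to a strand in these tables. Its reach is limited, since summing the 2 strand columns added 1.21% to 7.76% to the Cry2 count and 0% to the Cry1 count. D930015M05Rik had log2 fold changes of -0.57 ± 0.37 in callosum, -0.67 ± 0.44 in neurospheres and -0.64 ± 0.29 over both sources (SE). Mterf2 had -0.52 ± 0.20 over both sources (SE). There these 2 genes had an unadjusted edgeR p under 0.05, as did 9.93% of all genes.

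By pattern over the 11 libraries, after each source was centred on its own mean, Cry1 was most alike to Kctd5 (r = 0.94), Plat (0.93), Il17rd (0.92), Itga7 (0.92) and Pqlc2 (0.91), and most opposite to Camkv (-0.95), Star (-0.94), Cacng3 (-0.94), Tmem57 (-0.92) and Ldb2 (-0.91). Cry2 was most alike to Thra (0.98), Psd2 (0.98), Tldc1 (0.97), Rgma (0.95) and Gramd4 (0.95), and most opposite to Xylb (-0.97), Gpd1 (-0.96), Sgk1 (-0.96), 9630028I04Rik (-0.96) and Mrps2 (-0.95). These are Pearson correlations of log2(CPM + 0.5) among 13892 genes, given as a description: the points share libraries, depth and scaling. Only the source means were removed, so the difference between labelled genotypes stays in each r. Some were weaker in callosum than in neurospheres: 9630028I04Rik (-0.56 and -0.99), Sgk1 (-0.71 and -0.98) and Rgma (0.68 and 0.98). 9630028I04Rik averaged 0.17 CPM in callosum labelled Bmal1-/- and 0.20 CPM in wild-type callosum, near the level of 3 counts. Cacng3 averaged 0.18 CPM in neurospheres labelled Bmal1-/- and 0.44 CPM in wild-type neurospheres. Plat, for example, stood at 78.1 and 409 CPM on average in callosum and neurospheres labelled Bmal1-/- and 32.3 and 265 CPM in their wild-type counterparts. Thra, the gene nearest to Cry2, averaged 1398 CPM in callosum labelled Bmal1-/- and 1166 CPM in wild-type callosum, and 182 CPM in neurospheres labelled Bmal1-/- and 188 CPM in wild-type neurospheres. Cry1 and Cry2 themselves had r = 0.38.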

How the data were processed

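The 11 RNA libraries, 5 of callosum and 6 of neurospheres, were made after oligo dT selection or after removal of rRNA (the labels do not tell which) and sequenced on the BGISEQ-500 platform, per the labels' protocols. Per the submitters' processing notes, STAR 2.7.1a was the aligner and mm10 the build. The gene annotation was not given in the sources used here, and the authors deposited raw read counts per gene, in 3 columns by strand. The column that ignores strand was used, since 49.6% to 50.8% of counts fell on the first strand. The 4 rows that name no gene entered neither library sizes nor tests. They held unmapped reads (7.77% to 22.6% of reads), reads outside genes (8.55% to 16.6%), ambiguous reads (0.772% to 1.40%) and multimapping reads (0%). Columns of other series numbered 0.

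Counts were tested with edgeR 4.0.16 under R 4.3.3 (quasi-likelihood F test, robust, two-sided) after TMM scaling and filterByExpr, with Benjamini-Hochberg adjustment over all genes tested. Each source was fitted alone. A model of all 11 libraries gave the genotype difference over both sources and the genotype by source term. SE is the size of the log2 fold change divided by the square root of F. CPM values in the text are scaled over all 11 libraries. Ratios of Cry1 to Cry2 were tested by exact permutation over libraries. Scripts were tested on simulated data. Gene positions and lengths came from GENCODE M21 and promoters from RefSeq GRCm38.p6, and both symbols matched in each. No amino acid sequence was used here.

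The genes, the 9 pathway lists, the 11 marker lists and the naming rule were chosen with earlier results of these data known. The rule names both cryptochromes and Arntl everywhere, the 5 genes most and least like each cryptochrome, the listed genes past the threshold (at most 4 per list), the Per genes, and neighbours of the loci. Genes named as the rest of a list were added to these after their values were seen. Alternatives were RLE scaling, no filter or a filter at a mean of 1 CPM, DESeq2 1.42.0, limma-voom (limma 3.58.1), summed strand columns, a replicate block, 1 fit of all groups, and each library left out. A chi-square of replicate counts was 6.85 to 132 per degree of freedom, so every library was kept as its own replicate. The values of 130 and 132 both came from pairs with neurosphere replicate 1 labelled Bmal1-/-. Replicates 2 and 3 of that group gave 13.4. A floor of 3 counts corresponded to 0.152 to 0.172 CPM before scaling. Such floors cover counting error only.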

Additional observations from a re-analysis of the deposited data

How the results depend on the processing

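With each library left out in turn, the log2 fold change of Cry1 ranged over 1.02 to 1.38 in callosum (edgeR adjusted p = 0.0133 to 0.118) and 0.80 to 1.02 in neurospheres (0.291 to 0.976). Only the omission of wild-type callosum replicate 3 ended the callosum call. Under DESeq2 the neurosphere value was 0.92 and was called (adjusted p = 0.0118). Over both sources Cry1 was called under every alternative run. Cry2 was called between genotypes in none of the alternatives run. Its sign turned in neurospheres (-0.26 to 0.12 over left-out libraries) and over both sources (-0.0097 to 0.18). Arntl ranged over -0.13 to 0.19 in callosum and -0.10 to 0.072 in neurospheres, and Per1 over -0.14 to 0.12 in callosum.

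Counts of called genes moved more. In callosum 129 became 224 with no filter, 331 by DESeq2, 33 in 1 fit of all groups and 27 to 192 over left-out libraries (27 without wild-type replicate 3, 49 without replicate 1 labelled Bmal1-/-, 73 without wild-type replicate 2). In neurospheres 1 became 5 with no filter, 34 by DESeq2, 2 by limma-voom, 2 with a replicate block, 19 in 1 fit and 1 to 5 over left-out libraries (5 without replicate 1 labelled Bmal1-/-). Over both sources 21 became 109 by DESeq2, 7 with the block and 14 to 42 over left-out libraries (42 without neurosphere replicate 1 labelled Bmal1-/-). The genotype by source count of 2 became 37 by DESeq2, 1 with the block and 1 to 10 over left-out libraries (10 without that same library, 1 without wild-type neurosphere replicate 2, wild-type callosum replicate 2 or 3, or callosum replicate 2 labelled Bmal1-/-). The causes were not tested.

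The replicate block rests on shared numbers only. Same-numbered libraries deviated together with r = 0.28, -0.01 and 0.31 in neurospheres and 0.05 and 0.01 in callosum, so pairing was not taken as given. With the block, Cry1 was 1.14 in callosum, 0.94 in neurospheres and 1.01 over both sources (edgeR adjusted p = 0.00602, 0.488 and 0.0227), and Cry2 was 0.21, -0.04 and 0.06. Arntl and Per1 in callosum were -0.043 and 0.12. Over both sources Npas2 (1.55) and Nr1d1 (-1.48) lost their calls (both 0.0692). Nr1d1 also lost its call without each of 4 libraries. Per3 in neurospheres gained a call with the block, with no filter, in 1 fit and by DESeq2 (-2.46 to -2.43). In 1 fit of all groups Npas2, Ciart, Nr1d1, Nfil3 and Usp2 lost their callosum calls. Without 1 of the 2 callosum libraries labelled Bmal1-/-, the lone library is assumed to vary like the others. With 2 or 3 libraries a group, small differences of Cry2 cannot be resolved.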
